A study of Mus musculus with 22 samples.

Results

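ISG15 is a small ubiquitin-like protein that cells attach to other proteins after exposure to interferon. The enzymes work in a relay: UBA7 activates ISG15, UBE2L6 carries it, a ligase of the HERC family joins it to its target, HERC6 being the main such ligase in the mouse, and the protease USP18 takes it off again. USP18 also binds the type I interferon receptor and dampens its signalling. The genes of this relay are themselves switched on by interferon, so their transcripts serve as a readout of that response in the liver, where hepatocytes and resident macrophages both respond to interferon. The data described here are the liver transcripts of Isg15, Uba7, Ube2l6, Herc6 and Usp18. The genes were chosen by symbol: every probe set of the arrays annotated to one of them was taken, and for Isg15 also a probe set that carries several symbols. Earlier results of these data were known when the 5 genes and the gene lists were chosen. Their counts beside the shares of all probe sets are therefore descriptions and test no enrichment. This gave 10 probe sets for 5 genes, out of 45037 probe sets and 18194 named genes measured.

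The series asked whether TRIM24, a nuclear cofactor of transcription factors, holds back interferon and STAT signalling in the liver by inhibiting the retinoic acid receptor alpha, which is encoded by Rara. Livers of 22 mice were each hybridised to 1 array. The mice aged 5 weeks comprised 4 wild types (WT), 4 Trim24-/- mice, in which both copies of Trim24 are disrupted, and 4 Trim24-/- Rara+/- mice, which in addition have 1 of their Rara alleles deleted. At 14 weeks there were 5 WT and 5 Trim24-/- mice. All came from crosses on a mixed C57BL/6 and 129/Sv background and received no treatment named in the labels. The labels name no Cre line or cell type driver, and no Rara+/- group with intact Trim24 was analysed here. Animals are called by the end of their label, the number and letters at 5 weeks (2WT) and the last word at 14 weeks (liver_616WT), and the plots show the number alone. Nothing in the labels says which animals were littermates, so the p-values measure the spread between these animals only.

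The signals are linear array intensities scaled to a trimmed mean of 100.001 on every array. Levels are given as signal and differences as log2(signal + 16), a scale that understates changes of dim probe sets. Array medians ran from 12.6 to 16.1 at 5 weeks and from 19.7 to 25.9 at 14 weeks, and precision is limited by the few arrays per group. The probe set of Trim24 read 317 ± 111 (SD, n = 4) in WT and 363 ± 84.7 (SD, n = 4) in Trim24-/- livers at 5 weeks. The probe set of Rara read 12.3 ± 11.7 in WT and 18.2 ± 9.97 in Trim24-/- Rara+/- livers (SD, n = 4 each). Their position relative to the altered part of each gene was unknown here, so they check no label. Hepatocyte markers were bright in every group: the 6 of 8 that were measured summed to between 39852 and 64098 per array. Here and below, a gene of a list counted as measured where a probe set carried its symbol, or a synonym, and no other. Listed genes without such a probe set may still be on the array. In whole liver, fewer cells of a type and less RNA per cell cannot be told apart.

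The stretch just upstream of the Isg15 start holds overlapping copies of the motif read by interferon-activated transcription factors. It is shown beside the same stretch of Uba7, the member with called differences, and of Herc6, the ligase. The windows are from RefSeq on GRCm38.p6, 5′ to 3′ on the strand of the gene, and end at the base before the annotated start. They lie at chr4:156200819-156200968 on the minus strand for Isg15, at chr6:57580842-57580991 on the plus strand for Herc6 and at chr9:107975417-107975566 on the plus strand for Uba7. Capitals mark matches to the core of the interferon-stimulated response element, a pair of GAAA quartets separated by any 2 bases, on either strand.
Isg15: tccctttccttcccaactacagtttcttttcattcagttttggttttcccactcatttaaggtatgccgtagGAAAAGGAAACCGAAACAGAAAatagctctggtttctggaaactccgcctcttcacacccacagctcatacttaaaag
Herc6: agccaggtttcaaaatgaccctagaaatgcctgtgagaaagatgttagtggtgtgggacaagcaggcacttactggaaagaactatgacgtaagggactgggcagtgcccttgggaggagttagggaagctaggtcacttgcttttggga
Uba7: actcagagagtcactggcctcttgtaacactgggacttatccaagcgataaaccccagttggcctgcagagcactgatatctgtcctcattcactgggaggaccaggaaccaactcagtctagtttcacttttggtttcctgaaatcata

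The Isg15 window held 3 overlapping matches, which begin 78, 72 and 66 bases before the start. A window was at hand for 4 of the 5 genes, and in the 300 bases searched around the starts of Herc6, Uba7 and Ube2l6 these letters were not found. Among 32851 mouse windows of the same length, 1131 (3.44%) held the element. Among 24 windows of 22 classical interferon-stimulated genes, a list that leaves out the 5 genes, 14 (58.3%) held it. The core of the gamma-activated site, TTC and GAA separated by any 3 bases, was in 8.3% of all windows. The direct repeat of AGGTCA separated by 5 bases, a site read by retinoic acid receptors, was in 3 of 32851. Neither was found in the 4 windows.

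In 5-week Trim24-/- livers, the mean levels of all 5 transcripts lay above those of WT, from 1.75-fold for Ube2l6 to 4.96-fold for Isg15 on the log2(signal + 16) scale. All 10 probe sets differed in the upward direction, with a median log2 difference of 1.32 against -0.02 over all 45037 probe sets. Uba7 was the member that passed the test over the whole array: 2 of the 10 probe sets were called higher, both of them Uba7, where 0.182% of all probe sets were called higher. Here called means a limma p below 0.05 after Benjamini-Hochberg adjustment. For 6 of the 10, every Trim24-/- liver was above every WT liver, a pattern that 2.22% of all probe sets showed. An unadjusted p under 0.05 was seen for 9 of the 10 and for 8.86% of all.

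Isg15, the modifier itself, had 1 probe set, which is also annotated to Gm9706, so the signal of this pair cannot be separated. It read 67.8, 39.7, 72.97 and 102 in WT animals 2WT, 44WT, 45WT and 90WT. In Trim24-/- animals 1KO, 6KO, 8KO and 37KO it read 1078, 234, 679 and 140. The groups did not overlap, and the Trim24-/- animals differed among themselves by 7.68-fold. The log2 difference was 2.31 ± 0.49 (SE), with a limma adjusted p of 0.101, so Isg15 did not pass the test although its difference was the greatest of the 10 probe sets.

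Uba7 encodes the activating enzyme that starts the relay. Its brightest probe set read 102, 104, 92.7 and 81.8 in WT animals 2WT, 44WT, 45WT and 90WT. It read 322, 193, 275 and 202 in Trim24-/- animals 1KO, 6KO, 8KO and 37KO. The groups were well apart and the spread within each was narrow. Uba7 rose by 1.23 ± 0.20 (SE) on the log2 scale, a 2.34-fold difference with a limma adjusted p of 0.0320. The second probe set rose by 1.11 ± 0.18, with an adjusted p of 0.0317, from 60.0 ± 12.8 to 149 ± 35.3 (SD, n = 4 each). The third was dim, at 22.6 ± 13.4 in WT and 29.7 ± 9.33 in Trim24-/- livers, and differed by 0.28 ± 0.21 with an adjusted p of 0.776.

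Ube2l6 encodes the conjugating enzyme that receives ISG15 from UBA7. Its probe set read 107, 92.7, 101 and 44.8 in WT animals 2WT, 44WT, 45WT and 90WT, and 246, 98.8, 209 and 116 in Trim24-/- animals 1KO, 6KO, 8KO and 37KO. Animals 1KO and 8KO were far above WT, whereas animal 6KO lay within the WT range. The difference of 0.81 ± 0.27 (SE) did not pass the test, with a limma adjusted p of 0.357.

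Herc6, the ligase, was covered by 4 probe sets. The brightest read 53.2, 60.9, 63.3 and 93.6 in WT animals 2WT, 44WT, 45WT and 90WT. It read 782, 233, 473 and 133 in Trim24-/- animals 1KO, 6KO, 8KO and 37KO. Every Trim24-/- value was above every WT value, and the difference was 2.07 ± 0.41 (SE) with a limma adjusted p of 0.0756. The second probe set gave 1.39 ± 0.32 with an adjusted p of 0.128, again without overlap. The other two were near the dim end in WT, at 22.2 ± 8.41 and 20.2 ± 2.14 (SD, n = 4), and differed by 1.42 ± 0.42 and 1.24 ± 0.43 with overlapping groups and adjusted p of 0.261 and 0.374.

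Usp18, the protease that reverses the modification, read 273, 211, 201 and 191 in WT animals 2WT, 44WT, 45WT and 90WT. In Trim24-/- animals 1KO, 6KO, 8KO and 37KO it read 1751, 719, 1296 and 507. The groups did not overlap. The difference was 2.06 ± 0.41 (SE), a 4.17-fold change with a limma adjusted p of 0.0772, so Usp18 too remained outside the call.

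**Figure D1:**
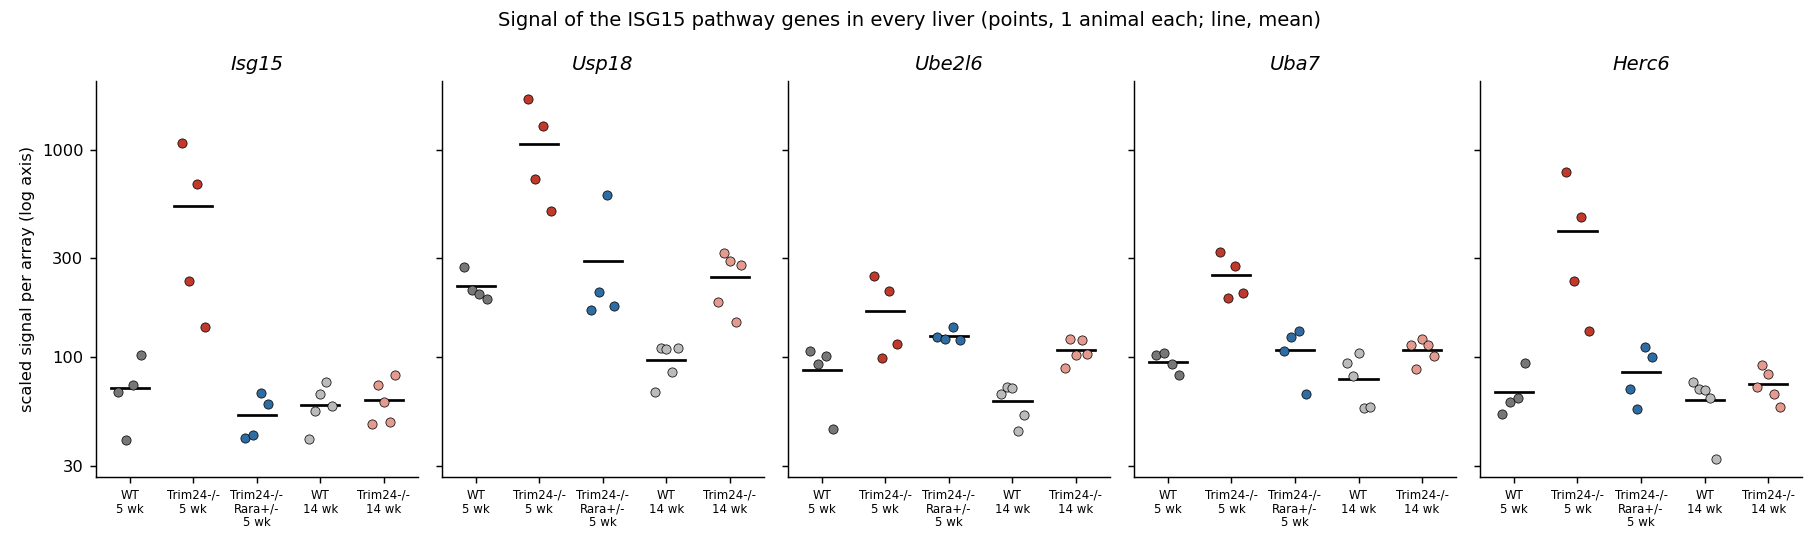
Scaled signal of the brightest probe set of each gene, on a log axis, in each of the 22 livers by group; each point is 1 animal and each line a group mean. At 5 weeks the 4 Trim24-/- livers lie above all WT livers for Isg15, Usp18, Uba7 and Herc6, while for Ube2l6 they overlap; at 14 weeks the genotypes are apart for Usp18 and Ube2l6.

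The calls at 5 weeks turned on single arrays. Of the 10 probe sets, 0 were called when a single liver was left out from among WT animals 2WT, 44WT, 45WT and 90WT, Trim24-/- animals 1KO and 8KO and Trim24-/- Rara+/- animal 66R. The count was 1 without Trim24-/- Rara+/- animal 54R or 82R and 7 without Trim24-/- animal 37KO. Trim24-/- animals 1KO and 8KO were the highest of their group for 10 of 10 probe sets. Their arrays were also the most alike of that group over all probe sets of log2 level above 6 (r = 0.987). Its other pairs gave 0.952 to 0.967, whereas pairs of Trim24-/- Rara+/- arrays gave 0.977 to 0.991. Such likeness was thus not particular to the pair of 1KO and 8KO. With this alike pair left out, a choice made after seeing the data, the differences were 1.24 for Isg15, 1.41 for Usp18, 0.32 for Ube2l6, 0.95 for Uba7 and 1.23 for Herc6, and none was called. With the pair averaged as 1 animal, likewise chosen after seeing the data, none was called either.

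In livers that lacked 1 Rara allele as well as Trim24, most values of the 5 genes lay in or near the WT range. In Trim24-/- Rara+/- animals 54R, 66R, 73R and 82R, Isg15 read 40.7, 42.2, 66.9 and 59.6, all within the WT range and all below the lowest Trim24-/- liver. The brightest probe set of Uba7 read 108, 124, 134 and 66.6 in these animals. That of Herc6 read 69.9, 56.2, 112 and 100. Both lay below every Trim24-/- liver. Ube2l6 read 124, 122, 139 and 121, a narrow band above all WT livers and inside the Trim24-/- range. Usp18 read 169, 206, 606 and 176, so that animal 73R lay among the Trim24-/- livers and the other 3 within or below the WT range.

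Against WT, 0 of the 10 probe sets were called in Trim24-/- Rara+/- livers, where 0.0311% of all probe sets were called higher, and 0 had an unadjusted p under 0.05, against 6.57% of all. The log2 differences of the brightest probe sets were -0.31 ± 0.49 for Isg15, 0.18 ± 0.41 for Usp18, 0.53 ± 0.27 for Ube2l6, 0.13 ± 0.20 for Uba7 and 0.25 ± 0.41 for Herc6 (SE). These intervals are wide: for Isg15 the 95% interval ran from -1.38 to 0.76. Ube2l6 was the one probe set with every Trim24-/- Rara+/- liver above every WT liver, a pattern of 1.49% of all probe sets, and its limma adjusted p was 0.798. Without animal 73R the value of Usp18 turned to -0.23.

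Set directly against Trim24-/- livers, all 10 probe sets were lower in Trim24-/- Rara+/- livers, with a median log2 difference of -1.25 against -0.01 over all probe sets. This comparison and the first one share the Trim24-/- arrays. None of the 10 was called, where 0.0377% of all probe sets were called lower, and 8 had an unadjusted p under 0.05, against 9.07% of all. For 5 of the 10 every Trim24-/- Rara+/- liver was below every Trim24-/- liver, against 3.64% of all probe sets. Isg15 differed by -2.62 ± 0.49 (SE) with a limma adjusted p of 0.0992. Uba7 differed by -1.10 ± 0.20 and, in its second probe set, by -0.996 ± 0.18, with adjusted p of 0.0818 and 0.0805.

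For the ligase and the protease the same comparison gave -1.82 ± 0.41 (Herc6, limma adjusted p = 0.155) and -1.88 ± 0.41 (Usp18, adjusted p = 0.141). Ube2l6 gave -0.28 ± 0.27 with an adjusted p of 0.856, and its 95% interval from -0.87 to 0.31 spans no difference. Without Trim24-/- animal 37KO, 3 of the 10 were called lower, in Isg15 and Herc6, and without Trim24-/- Rara+/- animal 73R it was 1, Usp18. With Trim24-/- animals 1KO and 8KO left out, Ube2l6 turned to 0.21, and the difference of Isg15 shrank to -1.55 and was not called.

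**Figure D2:**
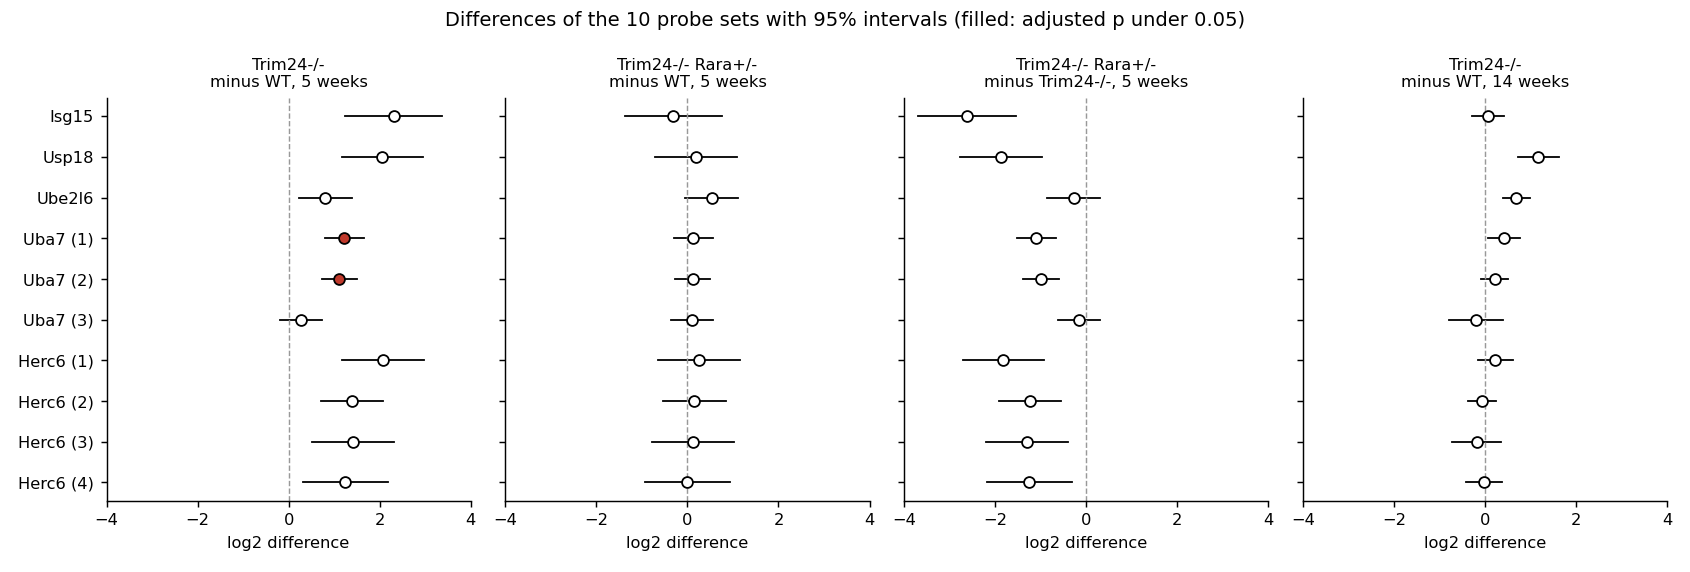
Log2 differences of the 10 probe sets in the 4 comparisons of genotypes, with 95% intervals from limma; probe sets of Uba7 and Herc6 are numbered from the brightest down, and filled points have an adjusted p under 0.05. All points lie to the right of 0 in Trim24-/- against WT at 5 weeks and to the left in Trim24-/- Rara+/- against Trim24-/-, and the 2 filled points are both Uba7.

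At 14 weeks Usp18 and Ube2l6 were higher in every Trim24-/- liver than in every WT liver, while the ranges of Isg15 overlapped almost fully. Usp18 read 68.0, 111, 109, 85.1 and 110 in WT animals liver_616WT, liver_611WT, liver_613WT, liver_464WT and liver_393WT. It read 185, 316, 290, 147 and 277 in Trim24-/- animals liver_648M, liver_466M, liver_463M, liver_411M and liver_395M. The difference was 1.17 ± 0.21 (SE), 2.25-fold, with a limma adjusted p of 0.0839. Ube2l6 read 66.6, 72.1, 71.0, 43.8 and 52.6 in the WT animals and 88.3, 122, 102, 121 and 104 in the Trim24-/- animals, in the same order. It differed by 0.69 ± 0.14 with an adjusted p of 0.135. Of the 10 probe sets 0 were called, where 0.102% of all were called higher, and 3 had an unadjusted p under 0.05, against 7.21% of all. Usp18 and Ube2l6 were the 2 probe sets with every Trim24-/- liver above every WT liver, against 0.824% of all. Without Trim24-/- animal liver_411M, Usp18 differed by 1.32 and was called, with an adjusted p of 0.0244.

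Isg15 at 14 weeks read 40.5, 54.7, 66.1, 75.5 and 58.0 in WT animals liver_616WT, liver_611WT, liver_613WT, liver_464WT and liver_393WT. In Trim24-/- animals liver_648M, liver_466M, liver_463M, liver_411M and liver_395M it read 47.6, 73.4, 60.7, 48.5 and 81.96. The ranges covered each other, and the difference of 0.06 ± 0.16 (SE) had a 95% interval from -0.29 to 0.42. Its sign turned when WT animal liver_616WT or Trim24-/- animal liver_395M was left out. The brightest probe set of Uba7 read 78.8 ± 21.4 in WT and 108 ± 13.4 in Trim24-/- livers (SD, n = 5 each), a difference of 0.41 ± 0.16 with a limma adjusted p of 0.601. That of Herc6 read 62.1 ± 17.2 and 73.8 ± 13.3, a difference of 0.22 ± 0.18 with an adjusted p of 0.859. The other 5 probe sets of Uba7 and Herc6 differed by -0.21 to 0.21.

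The change between the ages was tested as an interaction, the genotype difference at 14 weeks minus that at 5 weeks. It was negative for all 10 probe sets, 7 of which had an unadjusted p under 0.05, against 5.69% of all, but 0 were called lower, where 0.00222% of all probe sets were. The value was -2.25 ± 0.53 (SE) for Isg15, with a limma adjusted p of 0.379, and -1.85 ± 0.46 for Herc6, with 0.419. For Uba7 it was -0.82 ± 0.26 (adjusted p = 0.629), for Usp18 -0.89 ± 0.48 (0.896) and for Ube2l6 -0.12 ± 0.31 (0.990). Without Trim24-/- animal 37KO of the 5-week group, 3 probe sets of Isg15 and Herc6 were called. The ages also differed in sex-linked transcripts: Xist averaged 994 to 1696 in the 5-week groups and 27.7 to 29.1 in the 14-week groups, whereas Eif2s3y averaged 2.18 to 2.93 and 285 to 286. By these transcripts the 5-week mice read as female and the 14-week mice as male, although the labels give no sex. Age and sex cannot be told apart in the interaction.

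Ordered by mean signal over the 5 groups, the 5-week Trim24-/- livers stood first for the brightest probe set of every gene. For Isg15 the step down to the next group, 5-week WT at 70.6 ± 25.5 (SD, n = 4), was the only one between neighbours without overlap, and the other 4 group means lay between 52.4 and 70.6. For Uba7 and Herc6 the step from Trim24-/- to Trim24-/- Rara+/- at 5 weeks was likewise the only one without overlap. For Usp18 the lone gap was at the bottom, between WT at 5 weeks (219 ± 37, n = 4) and WT at 14 weeks (96.6 ± 19.3, n = 5). The groups of the 2 ages also differed in sex-linked transcripts and array medians, which cannot be told apart from age in this order. For Ube2l6 all neighbours overlapped, from 167 ± 71.4 in 5-week Trim24-/- down to 61.2 ± 12.4 in 14-week WT livers.

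Animals of a group differed in the relay as a block in 5-week Trim24-/- livers. Animal 1KO was highest in 9 of the 10 probe sets there, animal 8KO came next or first, and animals 6KO and 37KO were lowest. Among the Trim24-/- Rara+/- animals, animal 73R was the highest for 9 of the 10. With the group means removed, the deviations of the 5 brightest probe sets over 22 arrays correlated positively in 10 of 10 pairs, with a median Pearson r of 0.511. Isg15 with Herc6 gave r = 0.824 and Spearman's rho = 0.619 (permutation p = 0.00866 and 0.0387, adjusted over 10 pairs 0.0289 and 0.0968). Isg15 with Usp18 gave r = 0.698 and rho = 0.650 (permutation p = 0.00246 and 0.0130, adjusted 0.0147 and 0.0757). Ube2l6 with Uba7 gave r = 0.611 and rho = 0.572 (permutation p = 0.00293 and 0.0164, adjusted 0.0147 and 0.0757).

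The correlations were weaker without the 5-week Trim24-/- animals. The 3 pairs named were those whose r passed adjustment, and 0 pairs passed by rho. Without the 2 arrays farthest from the median the values were 0.551, 0.519 and 0.581. Without the 4 Trim24-/- livers of 5 weeks, the median over the 10 pairs was 0.217, and 7 of 10 were positive. Within the 12 arrays at 5 weeks the median was 0.650, and within the 10 at 14 weeks it was 0.0483, with 5 of 10 positive. Isg15 with Herc6 gave 0.955 at 5 weeks and -0.11 at 14 weeks, whereas Isg15 with Usp18 gave 0.711 and 0.686.

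**Figure D3:**
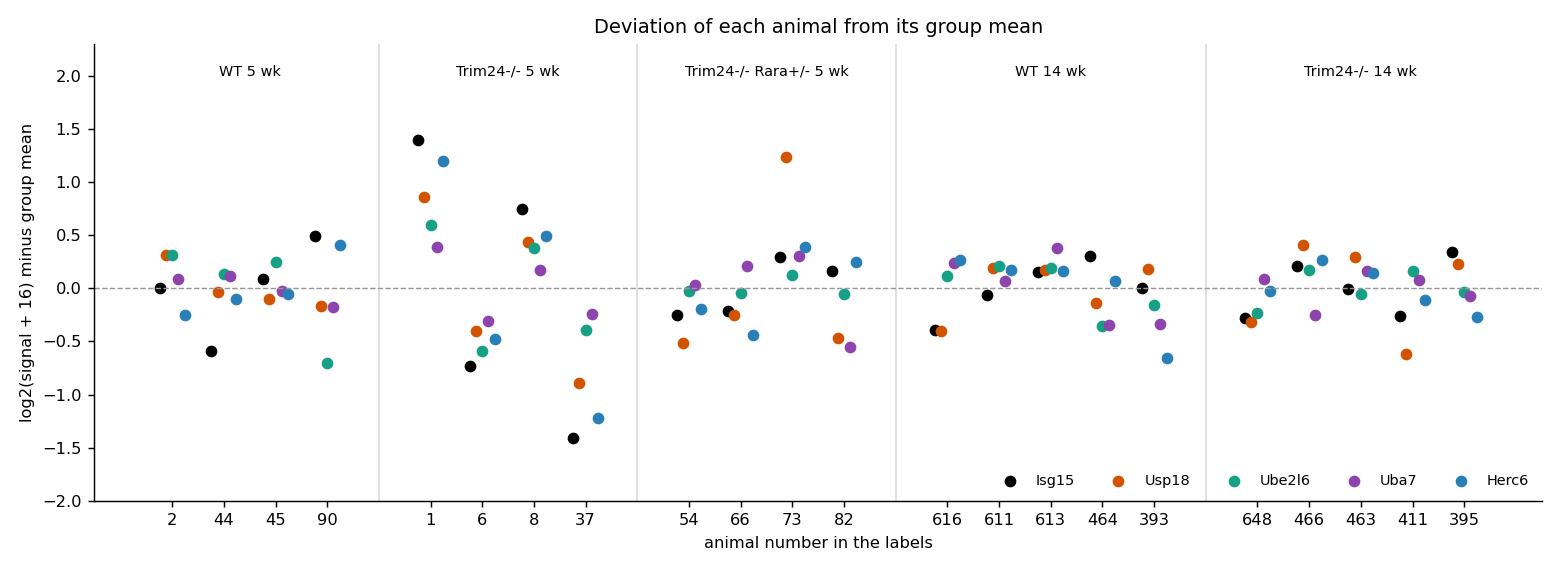
Deviation of each animal from the mean of its group, in log2(signal + 16), for the brightest probe set of each gene; animals are numbered as in the labels. The 5 points of Trim24-/- animals 1KO and 8KO all lie above 0 and those of animals 6KO and 37KO below it, and animal 73R stands out for Usp18.

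Other ligases, proteases and partners of ISG15, a list that also holds genes of no ISG15 enzyme, differed by -0.43 to 0.66 between Trim24-/- and WT at 5 weeks. Of these 11 ligases, proteases and partners, all measured, 0 were called in any of the 5 comparisons by limma, and 0 and 1 had an unadjusted p under 0.05 in Trim24-/- against WT and Trim24-/- Rara+/- against Trim24-/- at 5 weeks. The shares of all probe sets with such a p were 8.86% and 9.07%. The median log2 difference of the 11 was 0.06 between Trim24-/- and WT at 5 weeks and 0.02 between Trim24-/- Rara+/- and Trim24-/-. Trim25, an interferon-responsive ubiquitin ligase that is itself modified by ISG15, read 614 ± 241 in WT and 759 ± 152 in Trim24-/- livers at 5 weeks (SD, n = 4 each), a difference of 0.35 ± 0.24 (SE). Of 27 activating and conjugating enzymes and modifiers of the ubiquitin, SUMO, NEDD8 and UFM1 systems and other Herc genes, 15 were measured and 0 were called, with a median of 0.05 between Trim24-/- and WT at 5 weeks. The corresponding count with an unadjusted p under 0.05 was 3, against 8.86% of all probe sets.

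Upstream, the interferon genes themselves were dim. Of 21 ligands, 10 were measured, 9 of which were below 16 on every 5-week Trim24-/- array, and 0 were called. Among 18 of 19 measured receptors, kinases and transcription factors, 0 were called in the 5 comparisons. Between Trim24-/- and WT at 5 weeks, 7 had an unadjusted p under 0.05, against 8.86% of all probe sets. Irf7, a transcription factor that amplifies the interferon response, read 198 ± 49.1 in 5-week WT livers, 927 ± 544 with Trim24 lost and 265 ± 99.4 with 1 Rara allele lost as well (SD, n = 4 each). It differed by 1.96 ± 0.38 (SE) between Trim24-/- and WT, with a limma adjusted p of 0.0653. Irf9, a transcription factor of the interferon response, differed by 0.78 ± 0.17 (adjusted p = 0.112), and Stat2 by 0.48 ± 0.17 (0.381). Of the receptor genes, Ifnar1 differed by -0.08 ± 0.12 and Ifnar2 by -0.02 ± 0.09.

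Downstream, 29 of 30 classical interferon-stimulated genes were measured, and their summed signal followed the same animals. It was 26602, 11736, 18103 and 9479 in Trim24-/- animals 1KO, 6KO, 8KO and 37KO, and between 4883 and 6318 in WT at 5 weeks. In Trim24-/- against WT at 5 weeks, 29 of 29 differences were positive, with a median of 1.40. Of these, 26 had an unadjusted limma p under 0.05, against 8.86% of all probe sets. Called higher were 8, and 0 were called lower, where 0.182% of all probe sets were called higher. Leaving out each animal in turn gave 0 to 12 called higher, 0 of them without WT animal 44WT or 45WT or Trim24-/- animal 8KO. The count was 12 without Trim24-/- animal 37KO, and 0 with animals 1KO and 8KO left out or averaged. Those with the smallest adjusted p were Oas1a, a sensor of viral RNA (2.07 ± 0.30, limma adjusted p = 0.0222), Igtp, an immunity-related GTPase (1.41 ± 0.21, 0.0232), Zbp1, a nucleic acid sensor (2.31 ± 0.37, 0.0300), and Oas3 (0.96 ± 0.15, 0.0316). In Trim24-/- Rara+/- against Trim24-/-, 0 of the 29 differences were positive, with a median of -1.40. Of the 29, 27 had an unadjusted limma p under 0.05, against 9.07% of all probe sets. Called lower were 4, namely Igtp, Irgm1, Oas3 and Rtp4, where 0.0377% of all probe sets were called lower. Leaving out each animal in turn gave 0 to 14 called lower, 14 of them without Trim24-/- animal 37KO. The count was 0 without WT animal 45WT, Trim24-/- animal 1KO or 8KO, or Trim24-/- Rara+/- animal 54R, 66R or 82R. With animals 1KO and 8KO left out or averaged it was 0 too. Against WT, 0 were called in Trim24-/- Rara+/- livers and 0 at 14 weeks. At 14 weeks 29 of 29 differences were positive, with a median of 0.41. Of these, 14 had an unadjusted p under 0.05, against 7.21% of all probe sets.

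**Figure D4:**
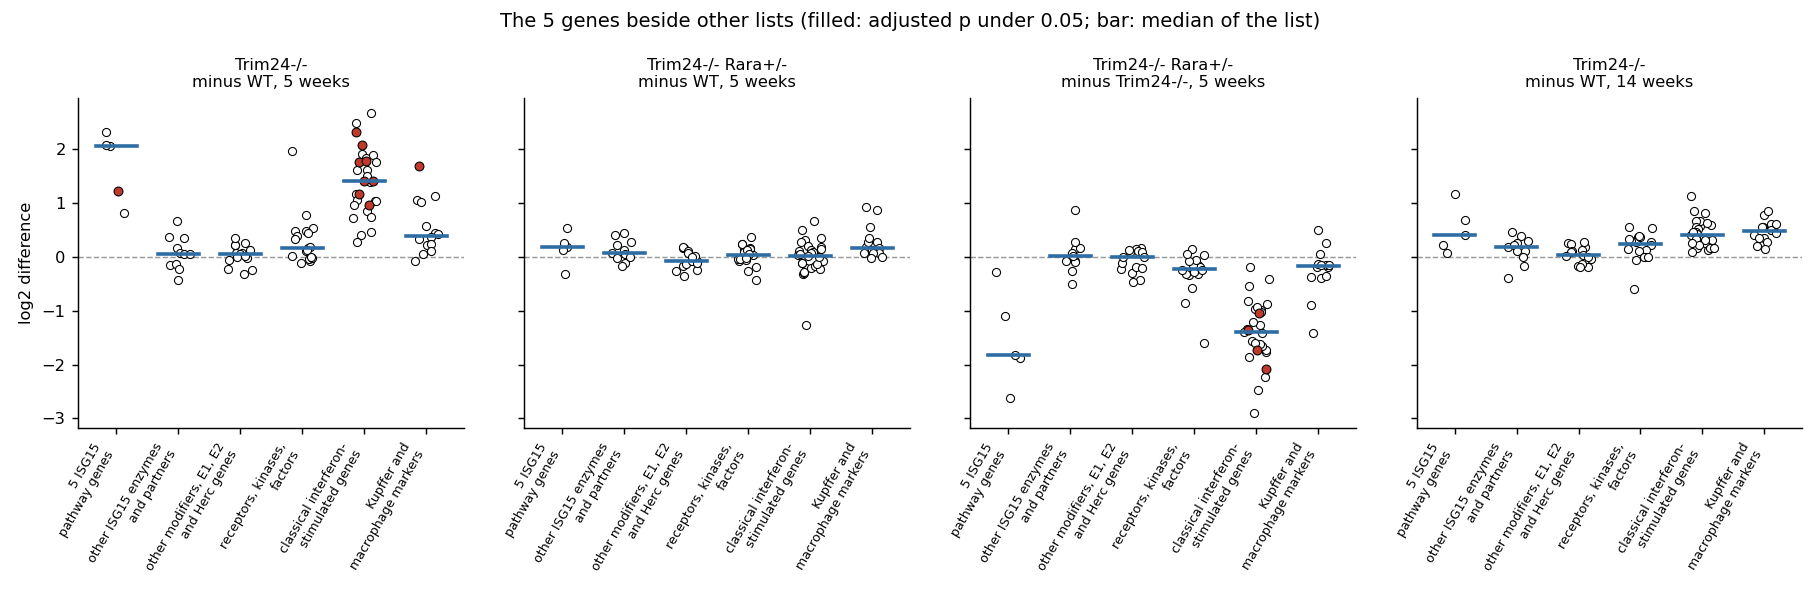
Log2 differences of the brightest probe set of each gene in 4 comparisons, for the 5 ISG15 pathway genes and 5 gene lists; bars are list medians and filled points have an adjusted p under 0.05. In Trim24-/- against WT at 5 weeks, the medians are 2.06 for the 5 genes, 1.40 for classical interferon-stimulated genes and 0.06 for the other ISG15 enzymes and partners.

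The genes whose 5-week pattern was most like the mean of the 5 were searched among 13136 probe sets with 1 symbol and a mean log2 level of at least 6. Over 12 arrays, Shisa5 gave a Pearson r of 0.985 and, in another probe set, 0.972. Ifit3, an interferon-induced antiviral protein, gave 0.983, Irf7 0.978, and Gbp6, an interferon-induced GTPase, 0.973. Over the 10 arrays at 14 weeks r was 0.792 and 0.767 for the Shisa5 probe sets, 0.602 for Ifit3, 0.949 for Irf7 and 0.811 for Gbp6. The first Shisa5 probe set read 255 ± 8.30 in 5-week WT livers, 623 ± 263 in Trim24-/- livers and 287 ± 43.7 in those of Trim24-/- Rara+/- mice (SD, n = 4 each). These arrays share the group differences, so the values describe likeness only.

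Markers of other cell types were read on the same arrays. Of 14 Kupffer cell and macrophage markers, 1 was called higher in Trim24-/- against WT at 5 weeks, Mpeg1 (1.69 ± 0.30, limma adjusted p = 0.0466). Of all probe sets 0.182% were called higher. The median of the 14 was 0.39. Differences were positive for 13 of the 14, from -0.07 for Csf1r up to Mpeg1. An unadjusted p under 0.05 was seen for 5 of the 14, against 8.86% of all probe sets. Besides Mpeg1 the 5 were Marco (1.13), Aif1 (1.05), Cd5l (1.02) and Cd68 (0.57). The summed signal of the 14 was 4689 to 9386 in WT and 6520 to 12991 in Trim24-/- livers. Within the Trim24-/- group it was lowest in the animals highest for the 5 genes, at 6520 and 6680 in animals 1KO and 8KO and 9991 and 12991 in animals 6KO and 37KO. Besides Marco and Cd5l, the Kupffer cell markers of the list included Timd4, Clec4f and Vsig4, which differed by 0.37, 0.23 and 0.10. At 14 weeks the same sum was 4214 to 5650 in WT and 5011 to 9332 in Trim24-/- livers. Of the 14 markers 0 were called, where 0.102% of all probe sets were called higher. An unadjusted p under 0.05 was seen for 10 of them, against 7.21% of all. The part of these markers in the differences of the 5 genes at either age was not tested.

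The summed signal of plasmacytoid dendritic cell markers, 5 of 6 measured, did not overlap, at 789 to 1136 in WT and 1564 to 2914 in Trim24-/- livers, and it was highest in animals 1KO and 8KO. Most of it was Bst2, which is also an interferon-stimulated gene (778 in WT and 1827 in Trim24-/- livers on average), and the defining marker Siglech averaged 6.68 and 7.05. All 5 measured markers differed upward, with a median of 0.45. An unadjusted p under 0.05 was seen for 3 of them, namely Bst2 (1.17), Ly6d (1.18) and Tcf4 (0.45), against 8.86% of all probe sets. The mean log2 level of the 5 measured markers, in which each marker counts alike, did not overlap either, at 6.35 to 6.51 in WT and 6.87 to 7.19 in Trim24-/- livers. It ordered the Trim24-/- animals otherwise than the sum, at 7.19, 6.87, 6.98 and 7.05 in 1KO, 6KO, 8KO and 37KO. B cell markers, 4 of 5 measured, summed to 24.2 to 107 in WT and 126 to 190 in Trim24-/- livers, most of it Ighm. Among Trim24-/- Rara+/- livers, animal 73R, the highest for Usp18, also had the highest plasmacytoid sum (1603, against 928 in the lowest) and the highest Kupffer cell and macrophage sum (10321, against 6299). In Trim24-/- against WT at 5 weeks, 0 of the measured T and NK cell, neutrophil, endothelial, stellate cell and cholangiocyte markers were called. At most 2 of any of these lists had an unadjusted p under 0.05, against 8.86% of all probe sets. The summed signals of WT and Trim24-/- livers overlapped. Single animals stood apart within that overlap.

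The endothelial sum was 1236 and 1148 in 1KO and 8KO, below every WT liver (1360 to 1931), and 1767 and 1909 in 6KO and 37KO. Animal 37KO had the highest stellate cell sum, 5635 against 2672 to 3637 in the other Trim24-/- livers, and the highest T and NK cell sum, 213 against 77.8 to 133. The neutrophil sum was highest in 6KO among Trim24-/- livers, at 353 against 49.4 to 121, and in 73R among Trim24-/- Rara+/- livers, at 225 against 50.8 to 57.4. Of these, the endothelial and stellate cell sums were lower in both 1KO and 8KO than in 6KO and 37KO. The part of all these markers in the differences of the relay was not tested.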

How the data were processed

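Total RNA of 22 frozen livers was amplified in 2 rounds from 100 ng and hybridised to one-colour Affymetrix arrays, per the labels' protocols. The deposited values are linear intensities that the authors had scaled to a common level, since the mean after trimming 2% at each end was 100.001 on every array. For the software, its settings and the genome build: not given in the sources used here. Probe sets were named from GEO's platform annotation. After leaving out 64 control probe sets, 45037 were tested on log2(intensity + 16) with limma 3.58.1 (R 4.3.3) and Benjamini-Hochberg adjustment over all of them. One model of 12 arrays served the 5-week comparisons, one of 10 the 14-week comparison, and all 22 entered the interaction. The script was tested on simulated data. Correlations used group-centred values and 100000 permutations. The brightest probe set by mean level stands for a gene, and for every comparison all 10 probe sets were counted. Genes of the lists were read only from probe sets that carry 1 symbol, and the others were left out as not measured. The genes were given by name, and the members and gene lists were chosen with earlier results of these data known. Alternatives covered the pseudocount, quantile normalisation, centring, a filter on dim probe sets, 1 probe set per gene, a variance trend, array weights, the arrays in the fit and leaving out each animal.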

Additional observations from a re-analysis of the deposited data

Results flagged for a closer look

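Of 50 sets of arrays, 1 for each probe set and group, 5 held an animal whose gap to the nearest other exceeded the 95% critical value of Dixon's test, and chance alone gives about 1 in 20. Usp18 read 606.1 in Trim24-/- Rara+/- animal 73R, against 169 to 206 in the other 3. The dimmest Uba7 probe set read 15.86 in 5-week Trim24-/- animal 37KO, against 32.9 to 36.1. The remaining 3 were in Herc6. Its brightest probe set read 32.24 in 14-week WT animal liver_393WT, against 63.8 to 75.5, and the second read 72.22 in 5-week WT animal 2WT, against 65.5 to 66.4. For Herc6, the third probe set by level read 7.988 in 14-week Trim24-/- animal liver_648M, against 29.1 to 42.2, all of them dim.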

How the results depend on the processing

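Among the alternatives, the count of called probe sets moved most in Trim24-/- against WT at 5 weeks. It was 2 as reported, 0 with a pseudocount of 1, with the arrays of the compared groups alone, or with Trim24-/- animals 1KO and 8KO left out or averaged, 4 with probe sets above the median level or a variance trend, 6 with all 22 arrays in the fit, and 0 to 7 leaving out each animal. With 1 probe set per gene, 3 of 5 were called, those of Usp18, Uba7 and Herc6. Uba7 was called in 12 of 24 alternatives for its brightest probe set, with log2 differences of 0.95 to 1.35, and Isg15 in 2 of 24, with 1.24 to 2.78. Usp18 was called in 6 of 24, with 1.41 to 2.36, and the brightest probe set of Herc6 in 5 of 24, with 1.23 to 2.48. In Trim24-/- Rara+/- against Trim24-/- the count was 0 as reported, 3 above the median level, 2 with the trend, 5 with array weights or all 22 arrays, and 0 to 3 leaving out each animal. At 14 weeks it was 0 as reported, 1 (Usp18) above the median level, with 1 probe set per gene or with the trend, and 0 to 1 leaving out each animal. The interaction count was 0 to 3 leaving out each animal. Trim24-/- Rara+/- against WT kept 0 throughout. The median correlation between genes within groups was 0.511, 0.0483 at 14 weeks alone, and 0.370 to 0.628 leaving out each animal. The causes were not tested. No paired analysis was possible because the animal numbers are not shared between groups.

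Of the values of single probe sets under an alternative, 1114 kept their direction and side of the threshold, 42 became called, 24 lost the call and 25 changed sign. Probe sets of a gene are numbered from the brightest. In Trim24-/- Rara+/- against WT, the fourth of Herc6 (-0.0089) gave 0.0027 with a pseudocount of 64, 0.040 after quantile normalisation and 0.054 after centring. With animals 1KO and 8KO left out, Trim24-/- Rara+/- against Trim24-/- gave 0.21 for Ube2l6 and 0.015 for the third of Uba7, and the interaction for Ube2l6 gave 0.37, or 0.043 with the pair averaged. Leaving out each animal gave, in Trim24-/- Rara+/- against WT, -0.23 to 0.36 for Usp18, -0.0024 to 0.21 for the second of Uba7, -0.039 to 0.32 for the third of Uba7, -0.17 to 0.072 for the fourth of Herc6 and -0.041 to 0.24 for the third of Herc6. At 14 weeks it gave -0.035 to 0.14 for Isg15, -0.38 to 0.039 for the third of Uba7, -0.12 to 0.083 for the fourth of Herc6 and -0.33 to 0.019 for the third of Herc6. For the interaction it gave -0.32 to 0.11 for Ube2l6. Signals near 16, where 37.8 to 54.5% of probe sets of an array lay below it, limit the dim probe sets of Uba7 and Herc6.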
